A study of Arabidopsis thaliana with 12 samples.

Results

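Sugar transporter and cell wall invertase genes were described in Arabidopsis thaliana seedlings, 10 genes of the 32678 in the count table. They were taken by their AGI locus codes from a list of sugar import and export genes: the monosaccharide importers STP1 (AT1G11260), STP4 (AT3G19930), STP13 (AT5G26340) and STP14 (AT1G77210), the SWEET facilitators SWEET2 (AT3G14770), SWEET4 (AT3G28007), SWEET11 (AT3G48740) and SWEET12 (AT5G23660), and the cell wall invertase genes cwINV1 (AT3G13790) and cwINV6 (AT5G11920). The list was chosen by family membership and with the measured response to chitin in earlier results of these data known, so the response of the 10 genes to chitin is given as a description. Each of the 10 passed the expression filter, with between 3 reads (SWEET4, 1 Col mock library) and 7873 reads (cwINV1) in a library.

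RNA was sequenced from whole seedlings 8 days old, grown in a medium that held 1% sucrose and kept in liquid medium for 3 h before treatment. The 4 groups were mapkkk5-1 (written mapkkk5) with chitin, mapkkk5 with mock, the wild type Col-0 (written Col) with chitin, and Col with mock, each treated for 3 h and each with 3 libraries. The design text speaks of 3 independent experiments. Chitin, a polymer of fungal cell walls, is sensed by plants as a sign of a fungus, and MAPKKK5 encodes a MAP kinase kinase kinase. The sources differ on the chitin dose: the design text has 40 mM, whereas the protocol for the treatment has 40 µM, and neither can be checked against the counts. The mutant is 1 allele, and shoot and root were not separated.

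Plant cells take up sugars from the cell wall space and release sugars into it. Cell wall invertases split sucrose there into glucose and fructose, and STP proteins, which are proton symporters of the plasma membrane, bring the hexoses into the cell. SWEET proteins let sugars pass down their gradient, out of the cell or across the vacuole membrane, and several microbes are known to draw on this route. STP13 is known to be induced by bacterial elicitors and to withdraw hexoses from the cell wall space.

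Library totals ranged from 15455836 to 20179428 reads, and 3 reads corresponded to between 0.152 and 0.2 CPM (counts per 1000000 reads of the scaled library). Chitin and mock libraries were split along a first principal component that carried 64.4% of the variance, and a second one (8.8%) set experiment 3 apart. MAPKKK5 itself averaged 24.4 ± 9.85 CPM in mapkkk5 chitin, 4.33 ± 0.831 CPM in mapkkk5 mock, 40.9 ± 3.96 CPM in Col chitin and 25.2 ± 3.19 CPM in Col mock libraries (SD, n = 3 each). It was lower in the libraries labelled mapkkk5 by 2.53 on the log2 scale in mock (edgeR adjusted p = 0.00147), and the difference of -0.75 in chitin did not pass the test (adjusted p = 0.674). Counts per gene do not show which part of MAPKKK5 these reads come from, so they do not tell whether an intact transcript was present. Markers of shoot (4 of 4), root (5 of 5), phloem (4 of 4) and guard cells (3 of 3) were above 0 in every group. Seed storage genes, 3 of 3 above 0 in 3 groups and 2 of 3 in Col chitin, summed to between 0 and 71.8 CPM and stood apart in single libraries.

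The bases upstream of 5 of the genes are shown for the letters of known motifs: SWEET4, STP13 and STP4, which had the highest average log2 response to chitin, cwINV1, the more abundant of the invertase genes, and SWEET11, an abundant gene that did not pass the test. Each line holds the 250 bases before the annotated gene start, 5′ to 3′ on the gene's strand, from the RefSeq TAIR10.1 assembly. The windows are chr3:10409978-10410227 (minus strand) for SWEET4, chr5:9247541-9247790 (minus) for STP13, chr3:6934318-6934567 (plus) for STP4, chr3:4535915-4536164 (minus) for cwINV1 and chr3:18054833-18055082 (minus) for SWEET11. Capitals mark TTGAC, the core letters of the W-box known from WRKY factors, and the G-box CACGTG, both read on either strand. The core alone does not show a site bound by WRKY factors, and the bases beside it were not searched.
SWEET4: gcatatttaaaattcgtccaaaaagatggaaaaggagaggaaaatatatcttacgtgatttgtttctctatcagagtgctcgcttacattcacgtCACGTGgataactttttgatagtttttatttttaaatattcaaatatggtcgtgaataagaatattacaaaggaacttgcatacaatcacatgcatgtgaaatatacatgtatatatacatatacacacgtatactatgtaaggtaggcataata
STP13: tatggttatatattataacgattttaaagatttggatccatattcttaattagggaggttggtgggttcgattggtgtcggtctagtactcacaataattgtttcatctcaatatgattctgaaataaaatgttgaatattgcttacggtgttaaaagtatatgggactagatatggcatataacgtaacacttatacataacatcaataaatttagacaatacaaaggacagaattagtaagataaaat
STP4: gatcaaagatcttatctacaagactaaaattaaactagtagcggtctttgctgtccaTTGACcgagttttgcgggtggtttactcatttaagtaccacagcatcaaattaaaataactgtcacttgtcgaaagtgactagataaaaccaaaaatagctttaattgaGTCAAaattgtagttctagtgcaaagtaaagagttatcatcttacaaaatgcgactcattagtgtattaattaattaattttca
cwINV1: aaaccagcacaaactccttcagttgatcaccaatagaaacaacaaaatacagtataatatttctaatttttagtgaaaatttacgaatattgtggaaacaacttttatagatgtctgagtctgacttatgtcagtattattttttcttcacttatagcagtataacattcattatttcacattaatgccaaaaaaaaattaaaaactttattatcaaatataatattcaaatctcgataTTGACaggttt
SWEET11: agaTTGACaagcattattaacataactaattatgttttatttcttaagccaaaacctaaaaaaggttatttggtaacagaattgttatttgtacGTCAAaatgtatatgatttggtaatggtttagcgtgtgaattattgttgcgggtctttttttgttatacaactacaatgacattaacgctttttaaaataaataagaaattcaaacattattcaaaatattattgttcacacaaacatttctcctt
Of the 10 windows, 6 held the W-box core, as did 44.9% of 27438 windows of protein-coding genes. STP4 and SWEET11 held 2 matches each, and 14.1% of all windows held at least 2. STP13 had none within these 250 bases. The G-box was found in 1 of the 10 windows, 155 bases before the start of SWEET4, and in 6.49% of all windows. None of the 9 matches overlapped another. The core stood upstream of 3 of the 6 genes that were raised by chitin in both genotypes and of 3 of the other 4.

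Chitin was followed by higher transcript levels of STP1, STP4, STP13, SWEET4, cwINV1 and cwINV6. STP14, SWEET2 and the sucrose exporters SWEET11 and SWEET12 did not pass the test in either direction without the experiments as a block. With the block, SWEET2 passed as higher in both genotypes and STP14 in Col. In mapkkk5, 6 of the 10 genes passed an adjusted p below 0.05 as higher (STP1, STP4, STP13, SWEET4, cwINV1 and cwINV6) and 0 as lower; of all 20994 genes tested, 34.8% passed, 19.1% as higher and 15.7% as lower. In Col the same 6 passed and 0 were lower, against 38.5% of all genes, 21.2% as higher and 17.3% as lower. With the experiments as a block, 7 of the 10 passed as higher in mapkkk5 and 8 in Col. Of all genes, 47.1% then passed in either direction in mapkkk5, and 51.9% of those calls were as higher. In Col 50.3% of all genes passed in either direction, and 52.7% of those calls were as higher. The median log2 fold change of the 10 genes was 0.74 in mapkkk5 and 0.97 in Col, beside -0.004 and 0.003 over all genes tested. Both responses are chitin minus mock within a genotype, and nothing is read from these counts, since the genes were chosen with the response known. With upper-quartile scaling the same comparison over all genes gave 43.5% of calls as higher in mapkkk5 against 55% with TMM scaling, and 41.7% against 55.2% in Col, and the calls of the 10 genes did not change.

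**Figure D1:**
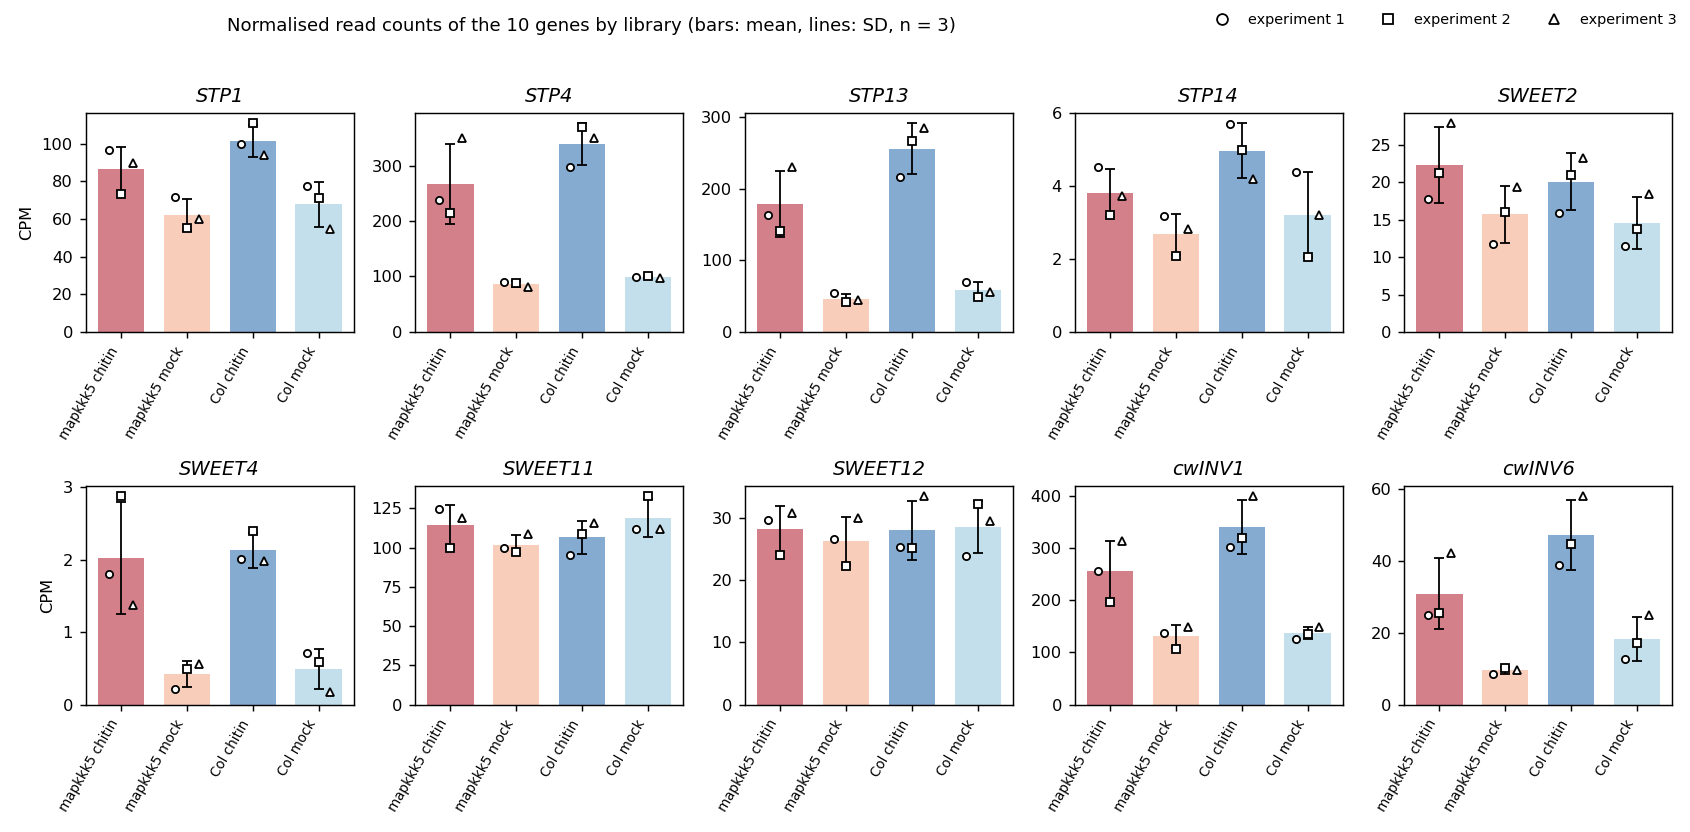
Normalised read counts (CPM, linear axes from 0) of the 10 genes in each library. Groups run from mapkkk5 chitin and mapkkk5 mock to Col chitin and Col mock; bars are means, lines are SD (n = 3) and symbols are the 3 experiments. STP4 sits between 214 and 370 CPM in the 6 chitin libraries and between 80.2 and 100.1 CPM in the 6 mock libraries, whereas the 4 groups of SWEET12 overlap.

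STP13, the importer known from defence against bacteria, had 163, 142 and 230 CPM in the mapkkk5 chitin libraries of experiments 1, 2 and 3, against 54.1, 41.5 and 44.6 CPM with mock. In Col it had 217, 266 and 285 CPM with chitin, against 70.3, 48.3 and 55.6 CPM with mock. Every chitin library lay above every mock library of its genotype. The log2 fold change was 1.93 ± 0.19 (SE) in mapkkk5, or 3.82-fold, and 2.14 ± 0.19 in Col, or 4.41-fold.

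STP4, a glucose importer of sink tissues such as root tips, had 238, 214 and 350 CPM in mapkkk5 chitin libraries, against 90.0, 87.6 and 80.2 CPM with mock. In Col libraries STP4 had 297, 370 and 349 CPM with chitin, against 98.7, 100.1 and 96.7 CPM with mock. Again the groups did not overlap, and the mock values spread little around their means, 85.9 ± 5.09 CPM in mapkkk5 and 98.5 ± 1.75 CPM in Col. Its log2 fold changes were 1.64 ± 0.16 in mapkkk5 and 1.78 ± 0.16 in Col.

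STP1, a high-affinity importer that accounts for much of the glucose uptake of seedlings, showed a smaller difference. It had 96.6, 73.6 and 89.7 CPM in mapkkk5 chitin libraries, against 71.7, 55.3 and 59.8 CPM with mock. In Col libraries STP1 had 99.97, 111 and 93.9 CPM with chitin, against 77.7, 71.3 and 54.7 CPM with mock. The groups did not overlap within either genotype, and the log2 fold changes were 0.48 ± 0.15 in mapkkk5 and 0.58 ± 0.15 in Col. The call in mapkkk5 rested on single libraries: it was lost without chitin replicate 1 (log2 fold change 0.39), chitin replicate 3 (0.45), mock replicate 2 (0.40) or mock replicate 3 (0.45), and without any 1 of the 3 experiments (0.51, 0.50 and 0.42). In Col it was lost without experiment 2 (0.54). STP1 overlaps AT1G11270 on the other strand, and no source used here gives the strand setting of the counting, so reads of the pair cannot be told apart.

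STP14, a galactose transporter, was scarce. Its 3 mapkkk5 chitin libraries held 4.52, 3.22 and 3.73 CPM, against 3.17, 2.07 and 2.81 CPM with mock. The Col libraries held 5.704, 5.0 and 4.21 CPM with chitin, against 4.38, 2.06 and 3.21 CPM with mock. The groups stood apart in mapkkk5 by a narrow gap and overlapped in Col, and neither log2 fold change passed the test, 0.51 ± 0.27 in mapkkk5 and 0.62 ± 0.26 in Col. With the experiments as a block, STP14 was called higher in Col (0.65), and it was also called there without Col mock replicate 1 (0.91).

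cwINV1, the main cell wall invertase of the leaf, had 257, 197 and 313 CPM in mapkkk5 chitin libraries, against 138, 106 and 148 CPM with mock. In Col libraries cwINV1 had 303, 318 and 399 CPM with chitin, against 126, 136 and 149 CPM with mock. Chitin libraries exceeded mock libraries in both genotypes without overlap, by 0.97 ± 0.18 on the log2 scale in mapkkk5 and 1.31 ± 0.18 in Col. These are 1.96-fold and 2.48-fold.

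cwINV6 carries the name of an invertase, but its enzyme is known to split fructans rather than sucrose. It had 24.8, 25.5 and 42.3 CPM in mapkkk5 chitin libraries, against 8.57, 10.3 and 9.68 CPM with mock. In Col libraries cwINV6 had 38.7, 44.7 and 57.9 CPM with chitin, against 12.8, 17.1 and 24.9 CPM with mock. The groups did not overlap, and in all 6 library pairs of one experiment and genotype the chitin library was the higher one. The log2 fold changes were 1.695 ± 0.26 in mapkkk5 and 1.37 ± 0.25 in Col.

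SWEET4, a hexose facilitator of the plasma membrane, combined the lowest level of the 10 genes under mock with the highest average response. It had 34, 51 and 24 reads in mapkkk5 chitin libraries (1.81, 2.88 and 1.38 CPM), against 4, 9 and 9 reads with mock (0.223, 0.491 and 0.562 CPM). In Col libraries it had 32, 36 and 39 reads with chitin (2.01, 2.40 and 1.98 CPM), against 13, 10 and 3 reads with mock (0.711, 0.589 and 0.175 CPM). No mock library reached the lowest chitin library. Summed over libraries, the ratio of chitin to mock was 4.80 in mapkkk5 with a 95% counting interval of 3.02 to 7.97, and 4.25 in Col with an interval of 2.75 to 6.80, which cover counting error only. The fitted log2 fold changes were 2.24 ± 0.45 and 2.09 ± 0.44, the widest errors among the 10 genes.

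SWEET2, which moves glucose across the vacuole membrane and is known for limiting sugar loss from roots, had 17.8, 21.2 and 27.8 CPM in mapkkk5 chitin libraries, against 11.8, 16.0 and 19.4 CPM with mock. In Col libraries SWEET2 had 15.9, 21.0 and 23.3 CPM with chitin, against 11.5, 13.7 and 18.4 CPM with mock. The groups overlapped, and experiment 3 gave the highest value in each of the 4 groups. The log2 fold changes of 0.51 ± 0.22 in mapkkk5 and 0.47 ± 0.23 in Col did not pass the test without the experiments as a block. With the block, SWEET2 was called higher in mapkkk5 (0.51 ± 0.09) and in Col (0.47 ± 0.09).

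SWEET11 and SWEET12 release sucrose for phloem loading. SWEET11 had 124, 99.6 and 119 CPM in mapkkk5 chitin libraries, against 100, 96.9 and 109 CPM with mock. In Col libraries SWEET11 had 95.2, 109 and 116 CPM with chitin, against 112, 133 and 112 CPM with mock. The groups overlapped in both genotypes, and the log2 fold changes of 0.17 ± 0.12 in mapkkk5 and -0.16 ± 0.12 in Col did not pass the test. SWEET12 averaged 28.2 ± 3.64 CPM in mapkkk5 chitin, 26.3 ± 3.84 in mapkkk5 mock, 28.0 ± 4.75 in Col chitin and 28.5 ± 4.22 CPM in Col mock libraries (SD, n = 3 each), with log2 fold changes of 0.10 ± 0.16 in mapkkk5 and -0.02 ± 0.16 in Col. Its groups overlapped as well.

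Within single experiments, the log2 ratio of chitin to mock (CPM plus 1) was above 0 for all 3 experiments in both genotypes for STP1, STP4, STP13, STP14, SWEET2, SWEET4, cwINV1 and cwINV6. STP4 ranged from 1.28 to 2.11 in mapkkk5 and from 1.58 to 1.87 in Col, and STP13 from 1.58 to 2.34 in mapkkk5 and from 1.61 to 2.44 in Col. cwINV1 had a narrower range than either, 0.89 to 1.08 in mapkkk5 and 1.22 to 1.42 in Col. SWEET11 was above 0 in the 3 mapkkk5 experiments (0.04 to 0.31) and in 1 of the 3 Col experiments (-0.29 to 0.05).

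**Figure D2:**
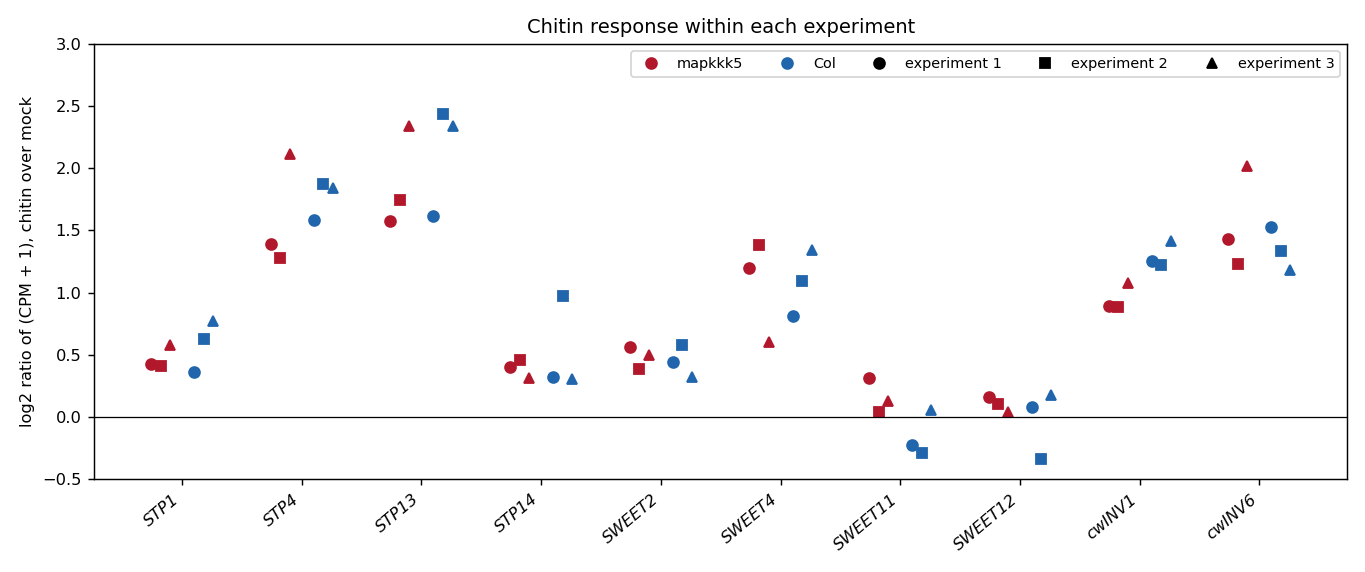
Log2 ratio of chitin over mock (CPM plus 1) for each gene within each experiment, mapkkk5 in red left of Col in blue, with a symbol per experiment. For 8 genes the 6 points lie above 0, and for SWEET11 and SWEET12 they lie between -0.34 and 0.31.

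Seedlings hold many tissues, and in such bulk RNA fewer cells of a type and less RNA per cell cannot be told apart. Root markers moved with the treatment: the summed level of 5 root genes was 1492 to 2312 CPM in mapkkk5 chitin libraries against 3400 to 5382 CPM in mapkkk5 mock, and 1641 to 3200 CPM in Col chitin against 4088 to 5867 CPM in Col mock. The sum was mostly PYK10, a root glucosidase, which fell in both genotypes, as did NRT2.1, a nitrate transporter. None of the other 3 root markers passed as lower without the experiments as a block: SCR, a regulator of root patterning, rose in Col (0.26 ± 0.10) and was at 0.10 ± 0.10 in mapkkk5, SHR was at 0.16 ± 0.18 in mapkkk5 and -0.03 ± 0.18 in Col, and COBL9, a root hair gene, was at -0.57 ± 0.23 in mapkkk5 and -0.50 ± 0.23 in Col without passing. With the block COBL9 was called lower in both genotypes. The 4 phloem markers summed to 218 to 272 CPM in mapkkk5 chitin and 200 to 245 CPM in mapkkk5 mock libraries. In Col the phloem sum was 253 to 309 CPM with chitin and 238 to 253 CPM with mock. This sum includes SUC2, a sucrose symporter gene that rose in both genotypes. SUC2 averaged 107 against 81.7 CPM in mapkkk5 chitin and mock, and 121 against 90.5 CPM in Col. The other phloem markers, APL, FTIP1 and AHA3, did not pass with or without the block. The guard cell markers summed to between 12.8 and 20.3 CPM in any library. Shoot markers summed to 6721 to 9321 CPM in mapkkk5 chitin against 8348 to 11430 in mapkkk5 mock, and to 7214 to 8144 CPM in Col chitin against 10440 to 11270 in Col mock. Of the 4 shoot markers, 0 were called lower with chitin in mapkkk5 and 1 in Col. With the block 3 of the 4 were called lower in each genotype. The part of these markers in the sugar gene results was not tested.

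The 3 families were also read whole, with the 10 genes included. Of 37 genes in the 3 families, 22 passed the filter and the other 15 reached at most 0.691 CPM, with no read at all for STP6, SWEET9 and cwINV2. In mapkkk5, 7 of the 22 rose and 2 fell, beside 19.1% and 15.7% of all genes; in Col, 7 rose and 3 fell, beside 21.2% and 17.3%. With the experiments as a block the counts were 8 up and 4 down in mapkkk5, and 10 up and 5 down in Col. With the block 47.1% of all genes passed in mapkkk5 and 50.3% in Col, in either direction. The 22 include the 10 genes, which were chosen with the response known. Of the 12 tested genes outside the list, 1 rose and 2 fell in mapkkk5 without the block, with a median log2 fold change of -0.265. In Col 1 of these 12 rose and 3 fell, with a median of -0.441. The STP family held 4 raised and 0 lowered genes of 8 tested in each genotype, the cwINV family 2 raised and 0 lowered of 3. The SWEET family ran both ways, with 1 raised and 2 lowered of 11 tested in mapkkk5 and 1 raised and 3 lowered in Col. With the block, 2 SWEET genes were raised and 4 lowered in mapkkk5, and 2 raised and 5 lowered in Col. SWEET16 was called lower only with the block (-0.75 ± 0.15 in mapkkk5, -0.66 ± 0.15 in Col). So were SWEET10 in Col (-0.67 ± 0.16) and SWEET1 in mapkkk5 (-0.32 ± 0.10), while STP7 was called higher in Col (0.32 ± 0.10).

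The raised STP gene outside the list was STP3, a low-affinity importer of green leaves, which averaged 63.0 ± 4.4 CPM in mapkkk5 chitin against 39.3 ± 2.85 CPM in mapkkk5 mock, and 55.5 ± 8.75 CPM in Col chitin against 41.9 ± 5.76 CPM in Col mock (SD, n = 3 each). Its log2 fold changes were 0.68 ± 0.13 in mapkkk5 and 0.41 ± 0.13 in Col. SWEET13 and SWEET14, which carry sucrose and are close relatives of SWEET11 and SWEET12, fell. SWEET14 had 11, 10 and 4 reads in mapkkk5 chitin libraries against 56, 53 and 31 with mock, and 2, 2 and 3 reads in Col chitin libraries against 24, 22 and 35 with mock. The ratio of its summed reads was 0.173 in mapkkk5 (95% counting interval 0.108 to 0.266) and 0.0893 in Col (0.0348 to 0.192). SWEET13 fell by 2.26 ± 0.41 on the log2 scale in mapkkk5 and by 1.98 ± 0.41 in Col. SWEET17, a fructose carrier of the vacuole, fell by 0.40 ± 0.13 in Col, and its value of -0.23 ± 0.13 in mapkkk5 did not pass.

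**Figure D3:**
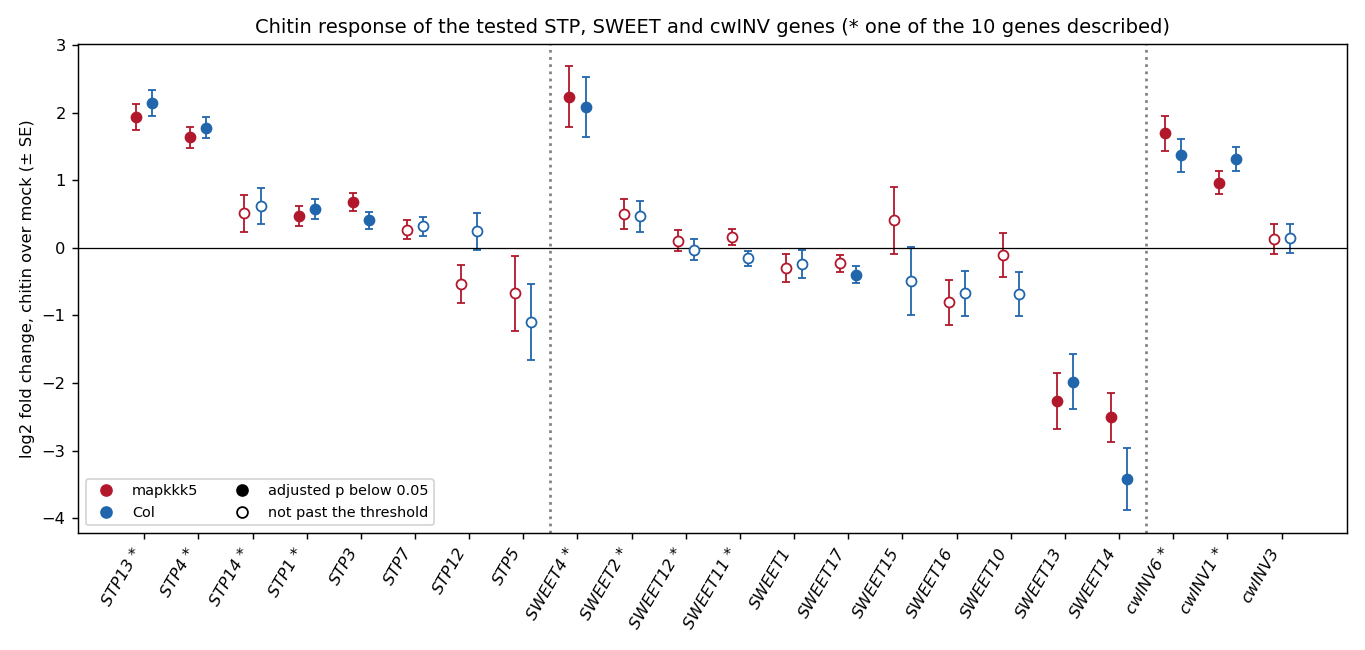
Log2 fold change, chitin over mock, with SE for the 22 tested STP, SWEET and cwINV genes, mapkkk5 in red left of Col in blue. Filled points passed an adjusted p below 0.05 in the fit without the experiments as a block. A star marks the 10 genes described. STP13, STP4, SWEET4, cwINV6 and cwINV1 stand near or above 1 in both genotypes, and SWEET13 and SWEET14 lie between -3.42 and -1.98.

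Summed over a family, the 14 STP genes reached 637 ± 134 CPM in mapkkk5 chitin against 270 ± 13.4 CPM in mapkkk5 mock, and 802 ± 70.9 CPM in Col chitin against 307 ± 18.8 CPM in Col mock (SD, n = 3 each). The 6 cwINV genes summed to 298 ± 69.5 CPM in mapkkk5 chitin against 151 ± 22.4 CPM in mapkkk5 mock, and to 401 ± 62.6 CPM in Col chitin against 168 ± 18.4 CPM in Col mock. The 17 SWEET genes summed to 247 ± 29.5 CPM and 246 ± 27.5 CPM in mapkkk5 chitin and mock, and to 235 ± 19.9 CPM and 267 ± 10.8 CPM in Col chitin and mock. The chitin and mock libraries did not overlap in summed STP and cwINV reads, and the chitin ones were higher. The SWEET sums overlapped in mapkkk5, whereas in Col the chitin libraries (224 to 258.1 CPM) lay below the mock libraries (258.8 to 279.5 CPM) by a narrow gap.

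Neighbouring steps of sugar handling were read from lists drawn up with earlier results known. Of 5 tested SUC sucrose symporters, SUC2, which loads the phloem, rose in both genotypes (0.39 ± 0.12 in mapkkk5, 0.42 ± 0.12 in Col) and the other 4 did not pass. With the experiments as a block SUC1, another sucrose symporter, was also called higher (0.35 ± 0.08 in mapkkk5, 0.36 ± 0.08 in Col). Of the 4 vacuolar invertases and invertase inhibitors, VAC-INV2, a vacuolar invertase, fell (by 0.66 ± 0.11 in mapkkk5 and by 0.70 ± 0.11 in Col), and VAC-INV1 was called lower with the block alone (-0.57 ± 0.09 in mapkkk5, -0.47 ± 0.09 in Col). The inhibitor C/VIF2 also fell, to 18.1 ± 3.93 CPM in mapkkk5 chitin against 33.0 ± 4.91 CPM in mapkkk5 mock, and to 15.8 ± 2.13 CPM in Col chitin against 36.3 ± 3.54 CPM in Col mock. C/VIF1, a second inhibitor, rose by 0.79 ± 0.19 in mapkkk5 and by 0.60 ± 0.19 in Col. It overlaps AT1G47950 on the same strand, so reads of the pair cannot be told apart where they overlap. None of the 6 sucrose synthases passed in either genotype by edgeR, where 0 also had an unadjusted p below 0.05.

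Of 5 tested sugar carriers of the vacuole membrane, ERD6, a monosaccharide carrier first known as a dehydration gene, rose and TST2, which loads sugars into the vacuole, fell in both genotypes. With the block TST1 was also called lower in both genotypes, and ERDL6 higher in Col. ERD6 had 532, 544 and 689 CPM in mapkkk5 chitin libraries against 159.9, 144 and 148 CPM with mock, and 570, 666 and 630 CPM in Col chitin libraries against 152, 159 and 161 CPM with mock. Its log2 fold changes, 1.97 ± 0.12 in mapkkk5 and 1.98 ± 0.12 in Col, had about the size of those of STP13. Among 6 reporters of sugar shortage, 5 rose in both genotypes, beside 19.1% of all genes in mapkkk5 and 21.2% in Col, and ASN1, an asparagine synthetase, did not pass (0.50 ± 0.77 in mapkkk5, 0.38 ± 0.70 in Col). The reporters that rose were SEN1 (2.58 ± 0.71 in mapkkk5, 2.46 ± 0.66 in Col), BCAT2, TPS8, DIN10, a raffinose synthase family gene, and TPS10. DIN10 averaged 229 ± 13.3 CPM in mapkkk5 chitin against 95.1 ± 14.0 CPM in mapkkk5 mock, and 262 ± 22.2 CPM in Col chitin against 105 ± 6.76 CPM in Col mock.

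Levels of different genes were compared as CPM per kilobase of exon. Under mock, SWEET11 stood highest of the 10 genes, with 73.5 ± 4.48 in mapkkk5 and 85.6 ± 8.76 in Col, followed by cwINV1 with 51.2 ± 8.64 and 53.7 ± 4.49 and STP4 with 36.1 ± 2.14 and 41.4 ± 0.735 (SD, n = 3 each). The libraries of these neighbours did not overlap. With chitin STP4 stood first, at 112 ± 30.5 in mapkkk5 and 142 ± 15.7 in Col, and cwINV1 second, at 100.1 ± 22.9 and 133 ± 20.3, and the ranges of the pair overlapped in both genotypes. STP13 stood lower, at 18.1 ± 2.54 in mapkkk5 mock and 22.5 ± 4.35 in Col mock, near SWEET12, and was at 69.1 ± 17.9 in mapkkk5 chitin and 99.3 ± 13.6 in Col chitin. In Col chitin libraries STP13 lay above SWEET11 without overlap, and in mapkkk5 chitin libraries the ranges of SWEET11 and STP13 overlapped. SWEET4 and STP14 were the lowest in every group, at or below 2.04.

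**Figure D4:**
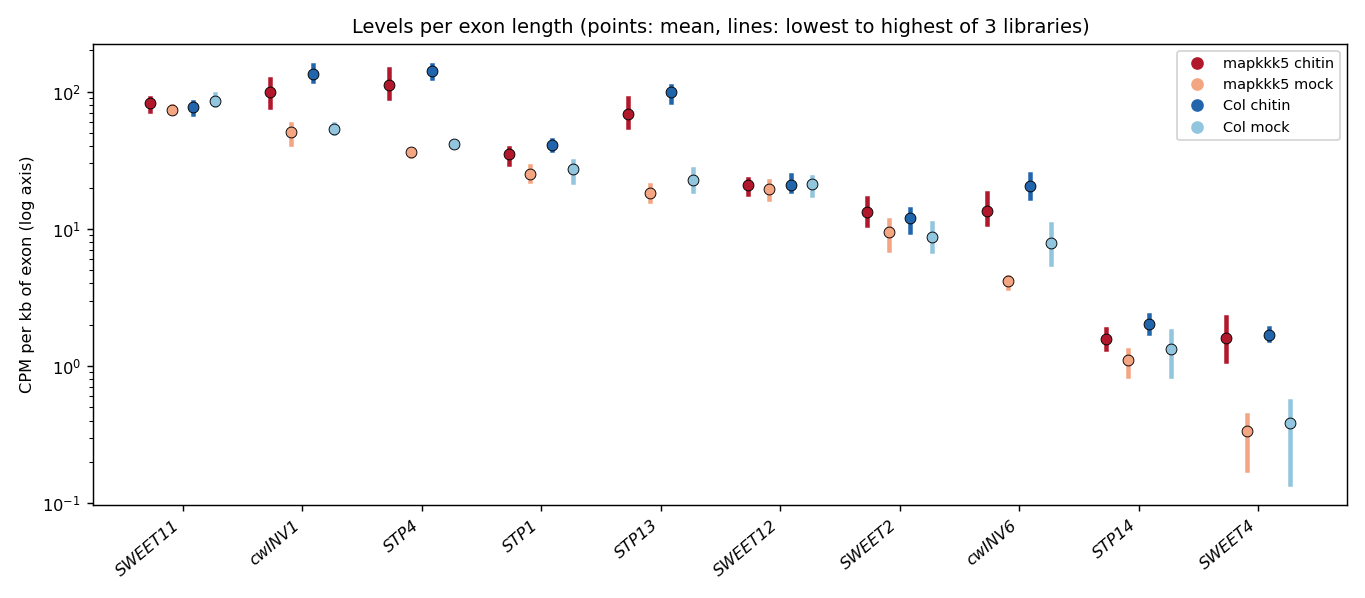
Levels of the 10 genes per exon length (CPM per kilobase, log axis), genes ordered by level; points are means and lines run from the lowest to the highest of 3 libraries. SWEET11 stays between 73.5 and 85.6 in all 4 group means, while STP4 reaches 142 in Col chitin.

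Within the STP family the makeup of the summed level per exon length shifted. STP13 made up 26.1 ± 1.27% in mapkkk5 chitin against 16.0 ± 1.53% in mapkkk5 mock, and 30.0 ± 1.86% in Col chitin against 17.5 ± 2.35% in Col mock. STP4 made up 42.3 ± 2.82% in mapkkk5 chitin against 31.9 ± 1.43% in mapkkk5 mock, and 43.0 ± 1.42% in Col chitin against 32.3 ± 1.98% in Col mock. The share of STP1 was 13.5 ± 2.21% in mapkkk5 chitin against 22.1 ± 2.03% in mapkkk5 mock, and 12.5 ± 1.35% in Col chitin against 21.3 ± 3.21% in Col mock, although its own level was higher with chitin. cwINV1 held between 80.6% and 85.6% of the cwINV sum in every group mean, and SWEET11 between 40.9% and 46.1% of the SWEET sum.

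The genotypes were compared within each treatment. Seed storage transcripts differed between the libraries compared: CRU3, a cruciferin, was at 0.0532, 15.1 and 60.8 CPM in mapkkk5 chitin libraries against 0 CPM in all 3 Col chitin libraries, and at 21.4, 0 and 56.8 CPM in mapkkk5 mock against 15.3, 0 and 0.117 CPM in Col mock. The seed storage genes did not pass between genotypes, and their part in the genotype values was not tested. None of the 10 genes passed in mock, where 0.0191% of all genes did, or in the chitin libraries, where 0.0714% did, by edgeR's quasi-likelihood test adjusted over all genes. In mock, 9 of the 10 log2 differences, mapkkk5 minus Col, were below 0 and that of SWEET2 was 0.11 ± 0.23. Their median was -0.21, beside -0.002 for all genes, and for 3 genes (STP4, SWEET11 and cwINV6) every mapkkk5 library lay below every Col library, as was so for 3.97% of all genes tested. In chitin the median was -0.29, beside -0.012 for all genes, and all 10 genes had overlapping groups, where 9.3% of all genes had none in either direction. After cwINV6, the furthest below 0 in the chitin libraries labelled mapkkk5 were STP13 at -0.52 ± 0.19 (edgeR adjusted p = 0.777), cwINV1 at -0.41 ± 0.17 (adjusted p = 0.811), STP14 at -0.37 ± 0.26 (adjusted p = 0.829) and STP4 at -0.34 ± 0.16 (adjusted p = 0.819). Their 95% intervals were -0.92 to -0.12, -0.79 to -0.04, -0.93 to 0.19 and -0.68 to -0.01, without adjustment for the number of genes. With the experiments as a block, STP13 was at -0.544 ± 0.152 (edgeR adjusted p = 0.154) and cwINV1 at -0.425 ± 0.104 (adjusted p = 0.119). STP14 was then at -0.383 ± 0.191 (adjusted p = 0.376) and STP4 at -0.353 ± 0.137 (adjusted p = 0.276), and these genes were not called.

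cwINV6 had the largest difference between genotypes among the 10. It averaged 9.52 ± 0.879 CPM in mapkkk5 mock libraries against 18.3 ± 6.16 CPM in Col mock libraries, with every mapkkk5 library below every Col library. The log2 difference was -0.94 ± 0.26 and did not pass (edgeR adjusted p = 1), although its 95% interval, -1.49 to -0.38, lay below 0. With chitin it averaged 30.9 ± 9.89 CPM in mapkkk5 against 47.1 ± 9.83 CPM in Col (-0.61 ± 0.24, adjusted p = 0.793), and the groups overlapped. With the experiments as a block, 0.0333% of all genes passed in mock and 0.457% in chitin. cwINV6 was then called lower in mapkkk5 in both treatments, by 0.90 ± 0.14 on the log2 scale in mock (edgeR adjusted p = 0.0495) and by 0.63 ± 0.12 in chitin (adjusted p = 0.0385), and no other of the 10 genes was called.

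The response to chitin did not differ detectably between the genotypes for any of the 10. Of all genes tested, 0% passed as differing in response by edgeR, 275 had an unadjusted p below 0.05, and DESeq2 called 4, none of them in the STP, SWEET or cwINV families. The difference in log2 response, mapkkk5 minus Col, was -0.34 ± 0.25 for cwINV1 with an interval of -0.87 to 0.18, and the 3 experiments taken singly gave -0.36, -0.34 and -0.34 (CPM plus 1). It was -0.21 ± 0.27 for STP13 (-0.78 to 0.36), -0.15 ± 0.22 for STP4 (-0.62 to 0.33) and 0.33 ± 0.35 for cwINV6 (-0.43 to 1.08). SWEET11 gave 0.32 ± 0.17 (-0.03 to 0.68), and SWEET4 had the widest interval, -1.22 to 1.53. These intervals come from the fit without the experiments as a block. With the block the difference was -0.34 ± 0.15 for cwINV1 and 0.33 ± 0.15 for SWEET11, and neither gene was called. The intervals above are per gene, without adjustment for the number of genes. They do not mark the smallest difference in response that the test adjusted over all genes could call. MAPKKK5 itself, with a difference of 1.79 without the block, was not called (edgeR adjusted p = 0.866). Differences within these bounds, and larger ones, may therefore have gone unseen in 3 experiments.

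**Figure D5:**
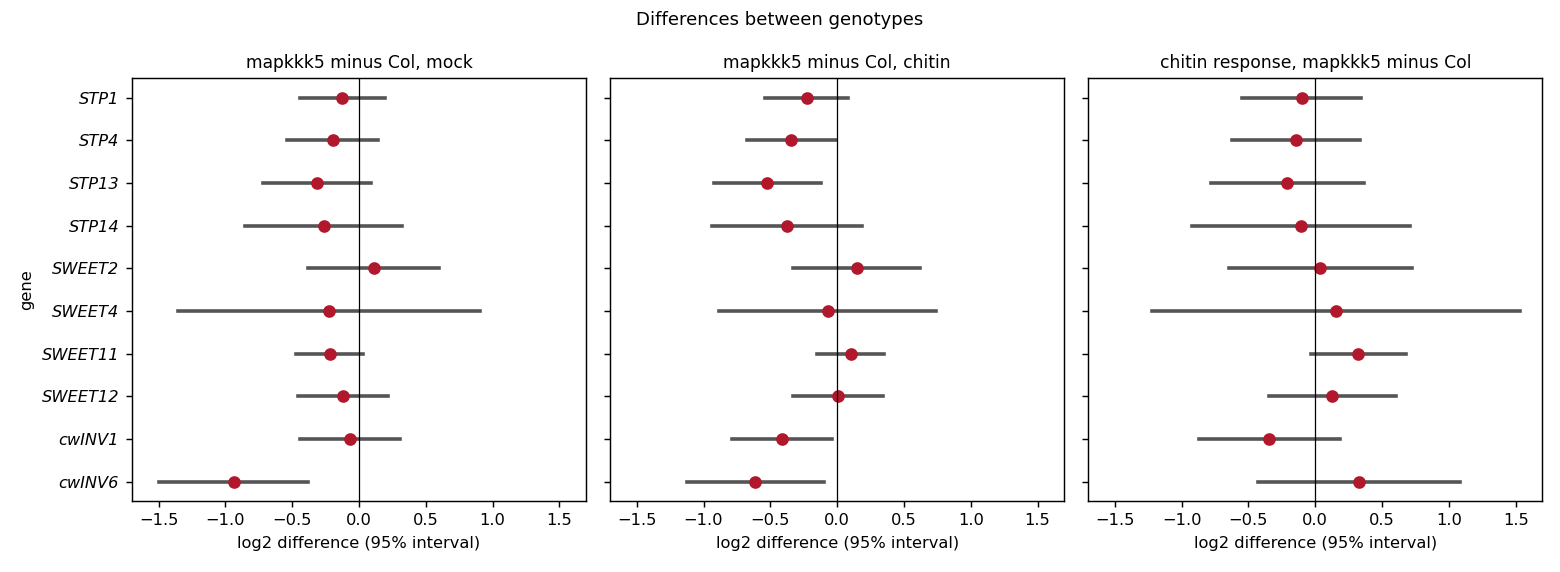
Differences between genotypes (mapkkk5 minus Col, log2) for the 10 genes with 95% intervals, in mock (left), in chitin (middle) and in the response to chitin (right). The intervals come from the fit without the experiments as a block. The intervals of cwINV6 lie below 0 in mock and in chitin, and every interval of the response difference includes 0.

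Likeness of the genes was described over the 12 libraries. The Pearson correlation of log2 CPM was 0.989 between STP4 and STP13, 0.963 between STP13 and cwINV1 and 0.904 between STP13 and cwINV6, while SWEET11 correlated with SWEET12 at 0.759 and with STP13 at 0.056. Chitin and mock libraries form separate clusters and the genes share libraries and depth, so these values carry no test. By the same measure over all tested genes with a symbol, the closest to STP13 were AlaAT1 (0.995), PIRL2 (0.993) and HIR2 (0.992), and the closest to STP4 were LECRKA4.3 (0.995), ECH2 (0.994) and AlaAT1 (0.993). For SWEET4 they were VOZ2 (0.963), QSOX1 (0.96) and TTL (0.951). AlaAT1 stood on both importer lists, with log2 fold changes of 0.93 in mapkkk5 and 1.01 in Col.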

How the data were processed

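The authors deposited raw read counts per gene for 12 libraries. The submitters' processing notes list HTSeq 0.6.1, TopHat2 2.0.10, cutadapt 1.5 and CASAVA 1.8.2, with TAIR10 as the build; their settings, strand and overlap mode are not given in sources used here. In edgeR 4.0.16 (R 4.3.3), filterByExpr on the 4 groups kept 20994 of 32678 genes, TMM scaled the libraries (factors 0.971 to 1.034), and 1 quasi-likelihood model with 4 groups (8 residual degrees of freedom) gave every comparison. A gene was called at an adjusted p below 0.05 (Benjamini-Hochberg over all tested genes); SE is the absolute log2 fold change over the square root of F. The scripts were tested on simulated data. DESeq2 1.42.0 and other alternatives are given in the closing section. Exon lengths, positions and upstream bases come from RefSeq TAIR10.1, in which all 87 listed genes were found.

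The 10 genes, the pathway lists and the alternatives were chosen with earlier results of these data known. Other genes named are, per list, up to 3 called genes in each direction with the largest fold changes, and the sugar shortage reporters. For the 3 genes with the highest average response, the 3 genes with the most similar levels are named. Genes of the sugar lists called for chitin with the block alone are named as well. Same-numbered libraries of compared groups deviated together in all 12 pairs (correlations 0.156 to 0.509). Over all 18 same-numbered pairs the correlations ran from -0.042 to 0.509, and over 36 pairs of unlike number from -0.442 to 0.143. The design text gives 3 independent experiments, so the numbers were taken to pair the samples. The main fit did not use this pairing, and values with the experiments as a block, which did, are named as such. Replicates differed by more than sampling noise, with a chi-square of 11.07 to 27.39 per degree of freedom; their independence rests on the labels. STP1 shared 0.525% of its 50-base stretches with other places in the genome, and the other 9 genes shared none. ASN1, BCAT2, DIN10, ERDL6, PYK10, TST1 and TST2 overlap genes on the other strand, so the limit given for STP1 holds for them too.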

Additional observations from a re-analysis of the deposited data

How the results depend on the processing

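Depth limited SWEET4 and STP14, which had 3 to 51 and 35 to 91 reads per library, and 3 experiments limited all genotype comparisons; the cause of each change below was not tested. Over all genes, calls for chitin numbered 7308 in mapkkk5 (5821 to 7403 with 1 library left out, 4762 to 4905 without an experiment, of which 4837 without experiment 2, and 9896 with the replicate block) and 8083 in Col (6744 to 8412, 5385 to 6145, and 10558). For the STP, SWEET and cwINV families they numbered 9 in mapkkk5 (8 to 10, and 12 with the block) and 10 in Col (8 to 11, and 15 with the block). Upper-quartile scaling placed the median of all genes at -0.086 in mapkkk5 and -0.106 in Col, and turned no direction among the 10 genes.

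In mock, 4 genes were called between genotypes, 7 with DESeq2, 7 with the replicate block, 4 to 5 with 1 library left out, and 0, 2 and 9 without experiments 1, 2 and 3. In chitin, 15 were called, 23 with no expression filter, 61 with DESeq2, 96 with the block, 9 (without Col chitin replicate 2) to 19 with 1 library left out, and 0, 4 and 23 without experiments 1, 2 and 3. The block called 1 family gene, cwINV6, in each. For the difference of responses 0 genes were called, 1 with no filter, 4 with DESeq2, 2 with the block, and 0 to 2 with samples left out. Besides STP14, SWEET2 and cwINV6, the block changed no call of the 10 genes.

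Leaving out samples turned the sign only of values that had not passed. With 1 library left out, SWEET12 in chitin against mock ranged from -0.002 to 0.208 in mapkkk5 and from -0.175 to 0.056 in Col. Between genotypes in mock, the ranges were -0.503 to 0.023 for STP14, -0.068 to 0.315 for SWEET2, -0.618 to 0.142 for SWEET4 and -0.169 to 0.061 for cwINV1. Between genotypes in chitin, they were -0.045 to 0.285 for SWEET2, -0.411 to 0.139 for SWEET4 and -0.061 to 0.16 for SWEET12. For the difference of responses, they were -0.212 to 0.03 for STP1, -0.398 to 0.135 for STP14, -0.168 to 0.215 for SWEET2 and -0.214 to 0.546 for SWEET4.

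Leaving out experiment 1 gave 0.453 for SWEET4 in mock, -0.038 for SWEET11 and -0.1 for SWEET12 in chitin, and -0.488 for the response difference of SWEET4. Without experiment 2, SWEET12 was at 0.125 for chitin in Col and at 0.075 between genotypes in mock, and cwINV1 at 0.048 there; the response differences were 0.074 for STP4, 0.011 for STP13, 0.098 for STP14, -0.09 for SWEET4 and -0.026 for SWEET12. Without experiment 3, SWEET4 was at 0.087 between genotypes in chitin, and the response differences were -0.06 for SWEET2 and -0.068 for cwINV6. With a prior of 0.25 in place of 1 CPM, the values within experiments kept their sign, and those of SWEET4 became larger.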
